A study of Mus musculus with 36 samples.

Results

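8 genes are described here: Tmem119, Sall1, Siglech, Fcrls, Gpr34, Cx3cr1, Olfml3 and Csf1r, which mark homeostatic (resting) microglia, the resident macrophages of the brain. They were chosen by symbol, with earlier results of these data known. Shares of all genes are therefore printed beside their calls as a scale and not as an independent test. Each matched 1 of the 55421 Ensembl gene rows of the expected-count table, so the set is 8 of 55421 rows. All 8 passed the filter on low counts and were tested. RNA came from slices of the right hippocampus of mice that had been dosed by gavage for 3 months, between the ages of 13 and 16 months. Wild-type mice (WT) were C57BL/6, and T41B mice (line 41) express human APP bearing the London and Swedish mutations and model the amyloid deposits of Alzheimer's disease. A Thy1 cassette, active in neurons, drives that APP, and the T41B animals are a single transgenic line. All mice received either vehicle or BD10-2 (PTX-BD10-2 in the labels), a compound named in the series title as a TrkB/TrkC partial agonist, which acts on receptors of neurotrophins. Each slice was then given theta-burst stimulation or sat for the same time as a sham control, and was flash-frozen. The stimulation consisted of 3 trains, each with 10 bursts 200 ms apart, and a burst held 4 pulses (100 Hz). The sex of the mice is not given in the sources used here.

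The design crossed genotype, treatment and stimulation, which gave 8 groups. Sham and stimulated slices of vehicle-treated WT mice came from 4 mice per group, those of vehicle-treated T41B mice from 4, those of BD10-2-treated WT mice from 3, and those of BD10-2-treated T41B mice from 5. Both slices were sequenced for 14 of the 18 mice, and the slices of each of these 14 mice shared a batch label. The comparison of stimulated with sham slices asks which transcripts change with the stimulation, and the comparisons of genotype and treatment ask how the amyloid model and the drug alter them.

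Microglia depend on signals from their surroundings for their identity. Csf1r, the receptor for the cytokines CSF1 and IL-34, keeps them alive, Cx3cr1 binds the neuronal chemokine fractalkine (Cx3cl1), and TGF-beta signalling together with the transcription factors Sall1 and PU.1 (Spi1) maintains the homeostatic program. When microglia respond to injury, inflammation or amyloid plaques, transcripts of this program are known to decline while inflammatory or plaque-associated genes are induced. Tmem119, a transmembrane protein, Gpr34, a receptor for lysophosphatidylserine, Siglech, a sialic acid-binding lectin that signals through Tyrobp, Fcrls, an Fc receptor-like scavenger receptor, and Olfml3, a secreted olfactomedin-like protein, are used as markers that set microglia apart from other macrophages.

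The promoters of 4 of the 8 genes are shown as examples of genes with large (Cx3cr1), intermediate (Olfml3) and smaller (Fcrls, Siglech) fitted changes after stimulation. Whether these changes differ between genes was not tested, and the letters marked are not set against them. The sequences are RefSeq's (GRCm38.p6) and run 5′ to 3′ on the gene's strand, from 250 bases before to 50 bases after the start. Capitals mark the letters GAGGAA on either strand, the core of sites bound by PU.1.
Cx3cr1, chr9:120068247-120068546, minus strand: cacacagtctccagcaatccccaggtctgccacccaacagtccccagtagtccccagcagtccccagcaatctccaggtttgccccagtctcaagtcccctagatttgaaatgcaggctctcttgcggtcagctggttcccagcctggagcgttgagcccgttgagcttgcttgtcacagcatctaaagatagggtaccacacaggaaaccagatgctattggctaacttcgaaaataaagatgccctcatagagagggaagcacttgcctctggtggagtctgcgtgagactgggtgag
Olfml3, chr3:103737952-103738251, minus strand: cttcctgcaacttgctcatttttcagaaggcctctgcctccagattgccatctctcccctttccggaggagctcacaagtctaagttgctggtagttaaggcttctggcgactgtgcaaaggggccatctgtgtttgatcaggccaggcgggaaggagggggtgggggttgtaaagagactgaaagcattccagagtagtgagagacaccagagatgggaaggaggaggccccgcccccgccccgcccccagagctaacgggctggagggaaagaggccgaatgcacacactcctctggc
Fcrls, chr3:87263475-87263774, minus strand: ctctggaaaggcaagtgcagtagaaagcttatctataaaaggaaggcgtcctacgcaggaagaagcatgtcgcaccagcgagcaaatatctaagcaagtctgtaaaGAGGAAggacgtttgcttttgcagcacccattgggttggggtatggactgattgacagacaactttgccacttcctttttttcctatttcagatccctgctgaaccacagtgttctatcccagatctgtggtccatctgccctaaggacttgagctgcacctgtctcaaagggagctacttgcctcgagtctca
Siglech, chr7:55767934-55768233, plus strand: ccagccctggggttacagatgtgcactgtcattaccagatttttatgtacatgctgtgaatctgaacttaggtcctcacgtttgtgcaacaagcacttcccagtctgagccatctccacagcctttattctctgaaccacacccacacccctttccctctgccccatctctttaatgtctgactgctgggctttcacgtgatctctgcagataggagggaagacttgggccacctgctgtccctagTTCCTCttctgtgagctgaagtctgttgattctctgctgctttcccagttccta
Fcrls held the letters once, from base -144 on its own strand, and Siglech once, from base -4 on the opposite strand, where they are printed as TTCCTC. Tmem119, Gpr34 and Csf1r are named only. Cx3cr1, Olfml3 and the 3 annotated starts of Sall1 held none in these windows, and 28.3% of 32851 promoters of the same length held at least 1. TGANTCA, the AP-1 site, was searched on both strands as well and was in none of the 5 genes with a promoter entry, against 7.81% of the 32851. A match of letters is not a binding site, and no match covers only this window.

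In the GENCODE M21 annotation (GRCm38), all 8 are protein-coding genes. Tmem119 (ENSMUSG00000054675) lies on chromosome 5 from 113793729 to 113800516, Gpr34 (ENSMUSG00000040229) on X from 13632089 to 13640858, and Sall1 (ENSMUSG00000031665) on 8 from 89027235 to 89044162. Siglech (ENSMUSG00000051504) spans 55768178 to 55778925 on 7, and Cx3cr1 (ENSMUSG00000052336) spans 119901616 to 120069879 on 9. On chromosome 3 lie Fcrls (ENSMUSG00000015852), from 87250758 to 87263738, and Olfml3 (ENSMUSG00000027848), from 103722222 to 103738001. Csf1r (ENSMUSG00000024621) shares 873 exonic bases with Hmgxb3 on the opposite strand and Cx3cr1 shares 78 with Gm33858. The kit marks strand, but the strand setting of the counting is not given in the sources used here, so reads in these bases may be counted for either gene.

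Libraries held between 11597555 and 28125842 expected counts, and 4 pairs of libraries with equal labels were added. Within these pairs the levels of the 8 genes differed by a median ratio of 1.06 to 1.44, and by up to 1.77 for Gpr34. Counts over all genes differed more within the Mouse1565 sham pair than between any libraries of different mice of the group: chi-square per degree of freedom was 31.6, against 8.93 to 29.1. It lay within the range between mice in the Mouse1557 sham pair (23.985, against 11.6 to 33.7). The same held for the Mouse1592 stimulated pair (13.73, against 13.69 to 77.0). In the Mouse1586 stimulated pair it was 8.10, against 12.6 to 22.5. The equal labels are all that joins them. Thy1, the cassette of the transgene, separated the genotypes: it lay at 253 to 403 CPM (expected count scaled to a common library total) in the 16 WT libraries and at 917 to 2503 CPM in the 20 T41B libraries. Neuronal markers summed to 3516 to 6229 CPM and markers of hippocampal neurons to 708 to 1480 CPM in every sample. Choroid plexus markers (8 genes) stood apart in 6 samples, at 115 to 1217 CPM in sum against 14.02 to 28.8 CPM in the other 26. The 6 were the stimulated slices of vehicle-treated WT mice Mouse1509 and Mouse1513 and both slices of vehicle-treated T41B mice Mouse1551 and Mouse1553. For the 8 genes, counts of calls are also given without them, and values for some of the genes. Results of the other gene lists and of the genes with the most similar profiles are given with them only. Markers of blood cells were near 0: no gene of the blood leukocyte list (9 genes) exceeded 0.84 CPM in any sample. No gene of the border macrophage list (7 genes) exceeded 3.21 CPM, which lies within the range of Gpr34 (0.456 to 14.7 CPM). The sum of this list was 0.80 to 6.98 CPM. Of its 5 tested genes, 2 were called higher (adjusted p below 0.05) in T41B mice in stimulated slices with BD10-2, against 8.19% of all genes. After stimulation 1 was called higher, in BD10-2-treated T41B mice, against 2598 of 19478 genes.

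Sham slices of vehicle-treated WT mice give the baseline. Per kilobase of exon, the mean level was highest for Csf1r, at 14.5 CPM per kb, followed by Cx3cr1 at 8.50, Fcrls at 6.47, Tmem119 at 5.85, Sall1 at 4.06, Siglech at 2.77, Olfml3 at 2.62 and Gpr34 at 2.03. Siglech, Olfml3 and Gpr34 lay close together at the low end. Values below are CPM of the gene, scaled to the TMM-adjusted library total, unless said otherwise.

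Theta-burst stimulation was followed by lower levels of most of these genes in each combination of genotype and treatment, and the size differed from gene to gene. Tmem119, Gpr34 and Cx3cr1 fell most, to medians of 11.1%, 17.5% and 20.4% of the sham slice of the same mouse (n = 14 mice). Olfml3 and Csf1r were at medians of 53.2% and 56.3%, and Fcrls, Siglech and Sall1 at 65.2%, 80.3% and 86.0%. In a bulk sample, fewer microglia and less of a transcript per microglial cell cannot be told apart, here and in all results that follow. By edgeR's quasi-likelihood test, called at an adjusted p below 0.05, 6 of 8 genes were lower in vehicle-treated WT mice, where 4.1% of 19478 tested genes were called lower, and 6 of 8 in vehicle-treated T41B mice, against 9.83% of all genes. In BD10-2-treated mice, 5 of 8 were lower in WT, against 2.58% of all genes, and 6 of 8 in T41B, against 9.52%. No member of the set was called higher in any of the 4 comparisons. The shares of all genes depend on the mice fitted: leaving out any 1 mouse took the genes called lower from 798 to between 296 and 426 in vehicle-treated WT mice and from 502 to between 167 and 264 in BD10-2-treated WT mice. The median log2 fold change over the 8 genes was -0.86, -1.11, -0.76 and -0.79 in these 4 comparisons in order, and that over all tested genes was -0.01, -0.05, -0.01 and -0.04.

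**Figure D1:**
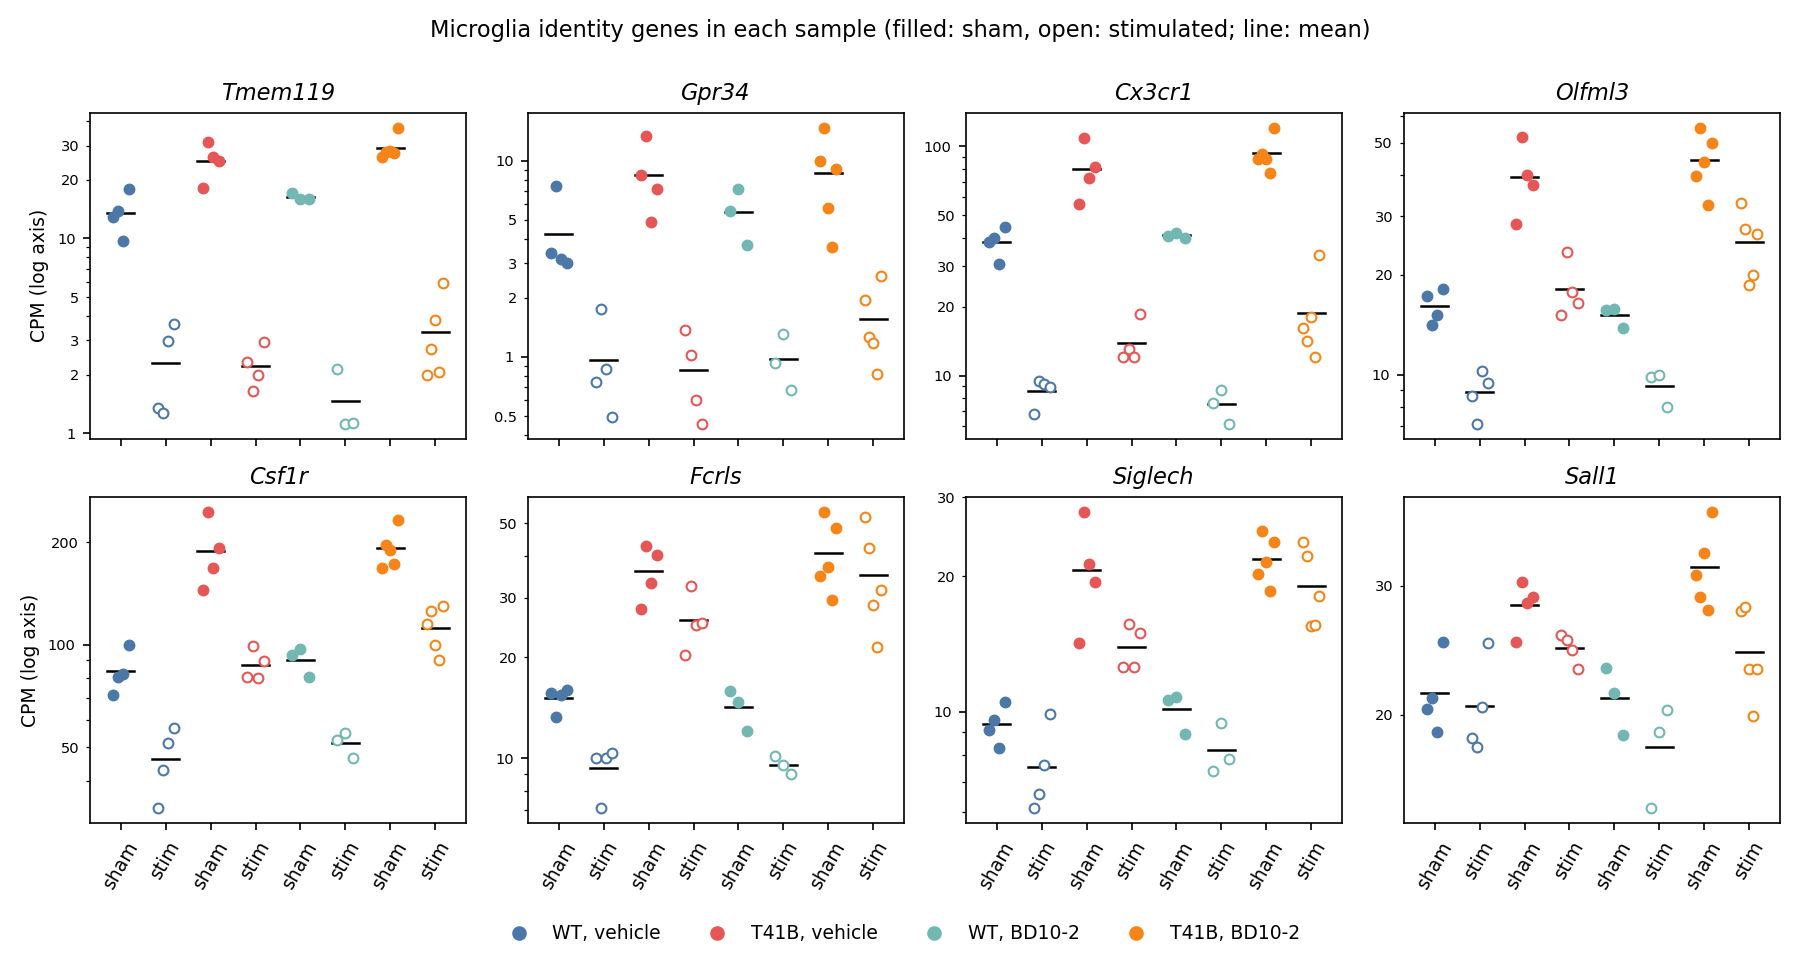
Level of each of the 8 genes in every sample, in CPM on a log axis, by genotype, treatment (colour) and stimulation (filled points: sham, open points: stimulated), with a line at the mean of each group. For Tmem119, Gpr34 and Cx3cr1 the open points lie below all filled points of the same colour, while for Sall1 and Siglech they overlap in every colour.

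Tmem119 showed the largest fitted difference in each of the 4 comparisons. In vehicle-treated WT mice the sham slices held 9.68, 12.9, 13.8 and 17.9 CPM and the stimulated slices 1.27, 1.34, 2.98 and 3.63 CPM. In vehicle-treated T41B mice the sham slices held 18.2, 24.9, 26.1 and 31.1 CPM and the stimulated slices 1.65, 1.98, 2.32 and 2.93 CPM. No stimulated slice reached the lowest sham slice of its own genotype, and the stimulated levels of WT and T41B mice lay in the same range. With BD10-2, WT mice had 15.9, 15.9 and 17.1 CPM in sham and 1.12, 1.12 and 2.15 CPM in stimulated slices. T41B mice with BD10-2 had 26.1, 27.4, 27.9, 28.02 and 37.1 CPM in sham and 1.99, 2.07, 2.697, 3.83 and 5.88 CPM in stimulated slices. The log2 fold changes were -2.56 ± 0.30 (SE), -3.50 ± 0.31, -3.47 ± 0.36 and -3.10 ± 0.26 for vehicle WT, vehicle T41B, BD10-2 WT and BD10-2 T41B, with edgeR adjusted p from 2.35e-10 to 4.9e-07. The stimulated slices of WT mice with BD10-2 rest on as few as 18 counts, so their level is less precise than that of the sham slices, which held at least 154 counts in every group.

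Gpr34, the lysophosphatidylserine receptor, had the lowest counts of the 8 and fell in all 4 comparisons. Its sham slices held 3.00, 3.14, 3.38 and 7.42 CPM in vehicle-treated WT mice against 0.492, 0.741, 0.864 and 1.76 CPM in stimulated slices. In vehicle-treated T41B mice the values were 4.84, 7.14, 8.44 and 13.4 CPM in sham and 0.456, 0.605, 1.02 and 1.36 CPM in stimulated slices. The groups did not overlap, although the stimulated slice of Mouse1579 held only 7 counts and the spread between sham slices was wide. With BD10-2 the sham slices ranged from 3.73 to 7.15 CPM in WT and from 3.63 to 14.7 CPM in T41B mice, and the stimulated slices from 0.680 to 1.302 CPM and from 0.816 to 2.57 CPM. Log2 fold changes were -2.12 ± 0.46 (SE), -3.25 ± 0.45, -2.54 ± 0.51 and -2.43 ± 0.37 in the same order, with edgeR adjusted p from 3.72e-06 to 0.0018.

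Cx3cr1, the fractalkine receptor, changed with the smallest spread of these 3 genes. Sham slices of vehicle-treated WT mice held 30.7, 38.4, 39.7 and 44.4 CPM and stimulated slices 6.76, 8.91, 9.20 and 9.48 CPM. In vehicle-treated T41B mice the levels were 55.8, 72.8, 81.5 and 109 CPM in sham and 11.996, 12.1, 13.0 and 18.5 CPM in stimulated slices. With vehicle, every stimulated T41B slice was thus below every sham WT slice. The BD10-2 groups gave 40.0, 40.7 and 42.0 CPM against 6.15, 7.62 and 8.68 CPM in WT mice, and 76.2, 87.6, 88.0, 93.0 and 121 CPM against 12.1, 14.2, 16.1, 18.1 and 33.7 CPM in T41B mice. The log2 fold changes ran from -2.53 ± 0.23 (SE) in vehicle-treated T41B mice to -2.16 ± 0.24 in vehicle-treated WT mice, with edgeR adjusted p from 7.74e-10 to 4.04e-07 over the 4 comparisons.

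Csf1r, the survival receptor, fell by less. Its sham slices held 71.4, 80.7, 82.3 and 100.1 CPM in vehicle-treated WT mice and its stimulated slices 33.2, 42.8, 51.7 and 57.2 CPM. In vehicle-treated T41B mice the sham slices held 145, 169, 193 and 246 CPM and the stimulated slices 80.1, 80.6, 89.8 and 99.1 CPM. The stimulated T41B slices therefore overlapped the sham WT slices and not the sham T41B slices. With BD10-2 the levels were 80.7, 93.2 and 97.1 CPM against 46.6, 52.7 and 55.2 CPM in WT mice. T41B mice with BD10-2 had 168 to 232 CPM in sham (median 190, n = 5) and 90.4 to 130.3 CPM in stimulated slices (median 115, n = 5). The log2 fold changes were -0.86 ± 0.15 (SE), -1.11 ± 0.15, -0.81 ± 0.18 and -0.77 ± 0.14, with edgeR adjusted p from 3.37e-06 to 0.0027.

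Olfml3, the secreted protein, followed Csf1r closely. In vehicle-treated WT mice it was at 14.1, 15.2, 17.3 and 18.1 CPM in sham and 7.11, 8.61, 9.47 and 10.2 CPM in stimulated slices. In vehicle-treated T41B mice it was at 28.4, 37.2, 40.0 and 52.2 CPM in sham and 15.1, 16.5, 17.7 and 23.4 CPM in stimulated slices. These groups did not overlap. In BD10-2-treated T41B mice the sham slices began at 32.5 CPM and the stimulated slices reached 32.9 CPM, an overlap of 1 slice. The log2 fold changes were -0.87 ± 0.19 (SE), -1.12 ± 0.18, -0.71 ± 0.21 and -0.82 ± 0.16, with edgeR adjusted p from 2.82e-05 to 0.0329. The call in BD10-2-treated WT mice, at 13.9 to 15.8 CPM against 8.01 to 9.98 CPM, was lost without any one of Mouse1565, Mouse1571, Mouse1586 or Mouse1590 (log2 differences of -0.77 to -0.58, adjusted p 0.064 to 0.162).

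Fcrls, Siglech and Sall1 were each called in 1 of the 4 comparisons, and not in the same one. Fcrls was called in vehicle-treated WT mice, from 13.3, 15.5, 15.7 and 16.0 CPM in sham to 7.11, 10.0, 10.0 and 10.4 CPM in stimulated slices (a log2 difference of -0.69 ± 0.22 SE and an edgeR adjusted p of 0.0345). Siglech was called in vehicle-treated T41B mice, from 14.3, 19.4, 21.3 and 27.8 CPM to 12.6, 12.6, 14.97 and 15.7 CPM (-0.57 ± 0.17 SE, edgeR adjusted p = 0.0125), where the groups overlapped. Sall1, the transcription factor, was called in BD10-2-treated T41B mice, from 27.8, 28.98, 31.002, 33.2 and 37.9 CPM to 19.9, 23.1, 23.1, 27.7 and 28.04 CPM (-0.38 ± 0.11 SE, edgeR adjusted p = 0.0095), again with overlap. In the other 9 comparisons of these 3 genes the log2 fold changes ran from -0.58 to -0.06 and were not called. These 3 calls changed with the mice or samples fitted. That of Fcrls was lost without any one of the 4 vehicle-treated WT mice Mouse1509, Mouse1513, Mouse1522 and Mouse1524 (adjusted p 0.0893 to 0.120), that of Siglech without Mouse1551 or Mouse1553 (0.0734 to 0.0863) or with the compared groups alone (-0.57, 0.0601), and that of Sall1 without Mouse1592 (a log2 fold change of -0.29). Without the 6 samples rich in choroid plexus markers, 5 of 8 genes were called lower in vehicle-treated mice of either genotype, against 5.35% of all genes in WT and 1.58% in T41B mice: the calls of Fcrls in WT (-0.57) and Siglech in T41B mice (-0.30) were lost while Sall1 in WT mice turned from -0.06 to 0.08 without a call at either value. With the mouse as a block in the fit, Fcrls was also called lower in vehicle-treated T41B (-0.48) and BD10-2-treated WT mice (-0.63). A batch covariate also gave the former call (-0.49, adjusted p = 0.0313), and the compared groups alone the latter (-0.58, adjusted p = 0.0209).

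**Figure D2:**
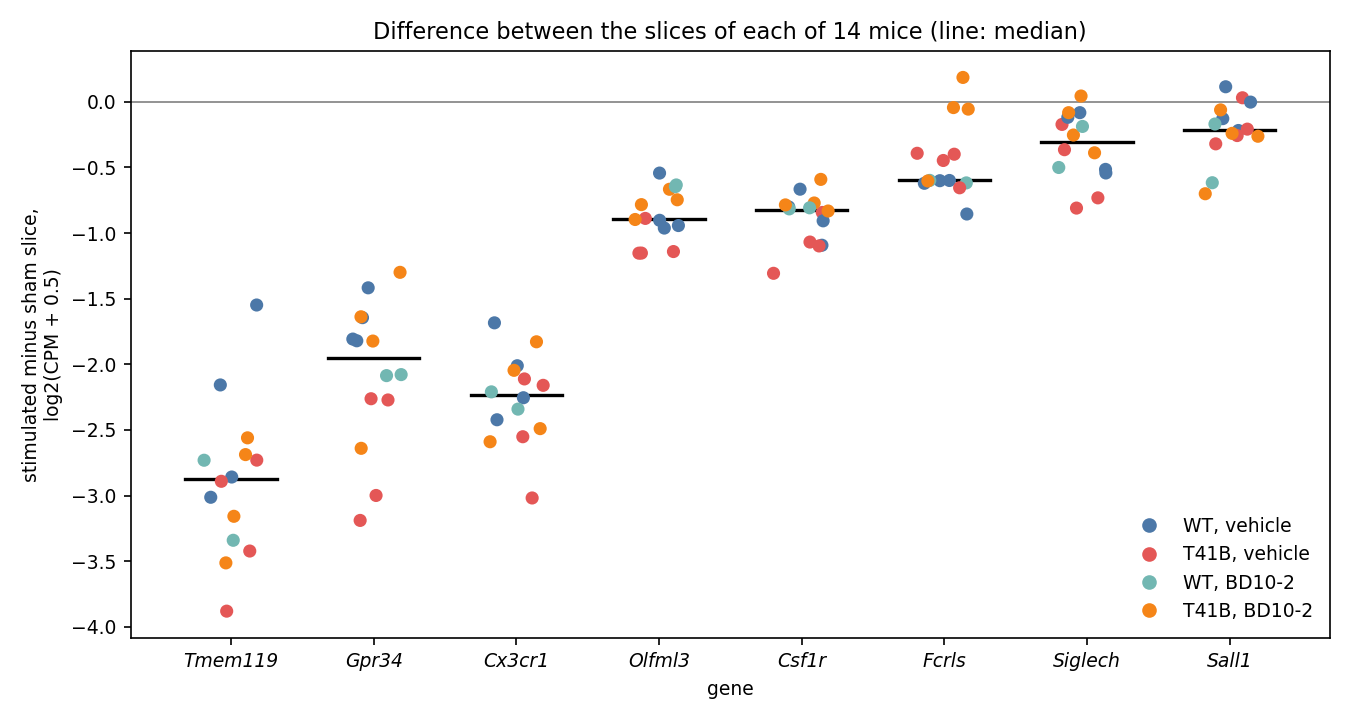
Difference between the stimulated and the sham slice of the same mouse in log2(CPM + 0.5) for each of the 8 genes in 14 mice, coloured by genotype and treatment, with a line at the median. Tmem119, Gpr34 and Cx3cr1 lie at medians of -2.87, -1.95 and -2.23, and Fcrls, Siglech and Sall1 come closest to 0.

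The order of the genes was much the same within single mice. Of the 112 differences between the slices of a mouse (8 genes in 14 mice), 108 were below 0. In 11 of 14 mice all 8 genes were lower in the stimulated slice. The share of all genes below 0 in these mice was not computed. Tmem119, Gpr34 and Cx3cr1 each fell more than each of the other 5 genes in 14 of 14 mice. Olfml3 and Csf1r each fell more than each of Fcrls, Siglech and Sall1 in 13 of 14. These tiers follow the medians of the same mice, so the counts describe the order and do not test it. Tmem119 fell most in 11 mice, Cx3cr1 in 2 and Gpr34 in 1, while Sall1 fell least in 9, Fcrls in 3 and Siglech in 2. Among mice, the level that remained was 5.29% to 30.8% of sham for Tmem119, 6.38% to 32.5% for Gpr34 and 11.9% to 30.002% for Cx3cr1. It was 44.2% to 67.6% for Olfml3, 40.3% to 66.3% for Csf1r, 53.6% to 113.9% for Fcrls, 56.3% to 103.2% for Siglech and 61.0% to 108.5% for Sall1. These differences are within a batch for every mouse, and they are given without a test.

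The other genes of the homeostatic program did not all move one way. Of 11 further homeostatic genes, 5, 7, 7 and 7 were called lower and 1, 1, 1 and 2 higher after stimulation in vehicle WT, vehicle T41B, BD10-2 WT and BD10-2 T41B mice. P2ry12, the ADP receptor that guides microglial processes, fell from a mean of 18.4 to 4.98 CPM in vehicle-treated WT mice (a log2 fold change of -1.89 ± 0.24 SE) and P2ry13, a related ADP receptor, from 6.56 to 0.843 CPM (-2.92 ± 0.28). Selplg, a ligand of selectins, fell from 19.7 to 3.53 CPM (-2.48 ± 0.24), and Slc2a5, a fructose transporter, was also called lower in all 4 comparisons. P2ry6, a receptor for UDP, went the other way in all 4: its mean rose from 1.36 to 4.32 CPM in vehicle-treated WT mice (1.66 ± 0.28 SE, edgeR adjusted p = 8.4e-05) and from 2.85 to 12.6 CPM in vehicle-treated T41B mice (2.14 ± 0.24, edgeR adjusted p = 1.44e-07). Adgrg1, an adhesion receptor, was not called in any, at -0.13 to 0.01.

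None of the ligands of the receptors among the 8 genes was called lower. Of 6 tested ligands and partners (Hcst did not pass the filter), 2, 3, 2 and 2 ligands or partners were called higher after stimulation. Csf1, a ligand of Csf1r, rose from a mean of 36.4 to 67.1 CPM in vehicle-treated WT mice (log2 difference 0.88 ± 0.14 SE, with an edgeR adjusted p of 4.87e-05) and was called higher in all 4 comparisons, as was Tgfb1, from 7.27 to 13.9 CPM (0.93 ± 0.17, edgeR adjusted p = 0.000256). Il34, the other Csf1r ligand, lay between -0.38 and 0.01 and Cx3cl1, the ligand of Cx3cr1, between -0.22 and -0.13, without a call. Pla1a, a phospholipase that makes lysophosphatidylserine, was called higher in vehicle-treated T41B mice (1.09). None of the 6 was called for a difference of the stimulation effect between genotypes or treatments.

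Among 12 regulators of microglial identity, 2, 5, 2 and 3 were called lower and 1, 0, 1 and 2 higher in the same order of comparisons. Mef2c, a transcription factor that neurons also express, was lower in 3 of the 4, with a mean of 123.9 CPM in sham and 75.8 CPM in stimulated slices of vehicle-treated WT mice (-0.71 ± 0.18 SE). Tgfbr2, a TGF-beta receptor, was lower in 3 (-0.91 ± 0.12 in vehicle-treated T41B mice), whereas Tgfbr1, its partner, was called higher in 3 (0.79 ± 0.18 in vehicle-treated WT mice). Ikzf1, a lymphoid and myeloid transcription factor, was lower in 3 (-1.48 ± 0.29 in BD10-2-treated WT mice). Spi1, which encodes PU.1, was not called in any, at -0.15 to 0.65.

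Genes shared by myeloid cells in general moved in both directions. Of 15 pan-myeloid genes, 4, 6, 4 and 3 were called lower and 1, 0, 1 and 2 higher after stimulation, with medians of -0.05, -0.32, -0.04 and 0.07. Their summed level was 248 to 332 CPM in sham and 212 to 311 CPM in stimulated slices of vehicle-treated WT mice, and 596 to 1238 against 520 to 792 CPM in vehicle-treated T41B mice, so these groups overlapped. Itgam, which encodes the integrin CD11b, was called lower in all 4 (-1.06 ± 0.18 SE in vehicle-treated WT mice), and Cd68, a lysosomal protein, was called higher in WT mice (0.74 ± 0.22 with vehicle). When libraries were scaled to this list in place of all genes, 5, 5, 4 and 5 of the 8 genes were lower, against 0.406%, 0.734%, 0.39% and 1.5% of all genes. Siglech in vehicle-treated T41B mice went from -0.57 to -0.07, Fcrls in vehicle-treated WT mice to -0.48, Olfml3 in BD10-2-treated WT mice to -0.49 and Sall1 in BD10-2-treated T41B mice to -0.35, all without a call. Sall1 turned positive, without a call, in vehicle-treated mice (0.15 in WT and 0.26 in T41B). That scaling moved the median of all genes to 0.21, 0.39, 0.21 and 0.01 in the 4 comparisons.

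Inflammatory genes rose in the same slices. All 10 genes of an acute inflammatory list were called higher after stimulation in each comparison, and their summed level was 127 to 182 CPM in sham and 744 to 1539 CPM in stimulated slices of vehicle-treated WT mice. Il1b, which encodes a cytokine, went from a mean of 0.310 to 50.8 CPM there (a log2 fold change of 7.32 ± 0.60 SE) and from 1.88 to 356 CPM in vehicle-treated T41B mice (7.53 ± 0.49). Of 10 plaque-microglia genes, 4, 3, 4 and 4 were higher and 0, 2, 0 and 1 lower, and Lgals3, which encodes galectin-3, was higher in all 4 (3.75 ± 0.47 in vehicle-treated WT mice). Astrocyte markers (7 genes) were called higher in 4, 4, 0 and 4 genes. Of all 19478 tested genes, 1599, 2283, 1225 and 2598 were called higher in the 4 comparisons in order. Summed levels of the astrocyte markers were 6382 to 7146 CPM in sham and 7166 to 8884 CPM in stimulated slices of vehicle-treated WT mice. Neuronal markers (8 genes) were lower in 1, 1, 1 and 4 genes, with sums of 5418 to 6229 against 4821 to 6013 CPM. Oligodendrocyte markers (8 genes) were called lower in 1, 2, 1 and 2 and higher in none, with medians of 0.23, -0.28, 0.21 and -0.09. In BD10-2-treated WT mice their sum was higher after stimulation, at 5189 to 7415 CPM against 3297 to 4945 CPM in sham slices. In the other comparisons their sums overlapped. Vascular markers (6 genes) were lower in 1, 0, 0 and 1 and higher in 0, 1, 0 and 1. All 8 choroid plexus markers were called higher in stimulated slices of vehicle-treated WT mice, where 2 of the 4 slices are among the 6 that are rich in them, and none in the other 3 comparisons. The part of these other cell types in the change of the 8 genes was not tested. Without the 6 samples, stimulation values are given above for Fcrls, Siglech and Sall1 only. Tmem119, Gpr34, Cx3cr1, Olfml3 and Csf1r kept their calls in vehicle-treated mice of either genotype.

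**Figure D3:**
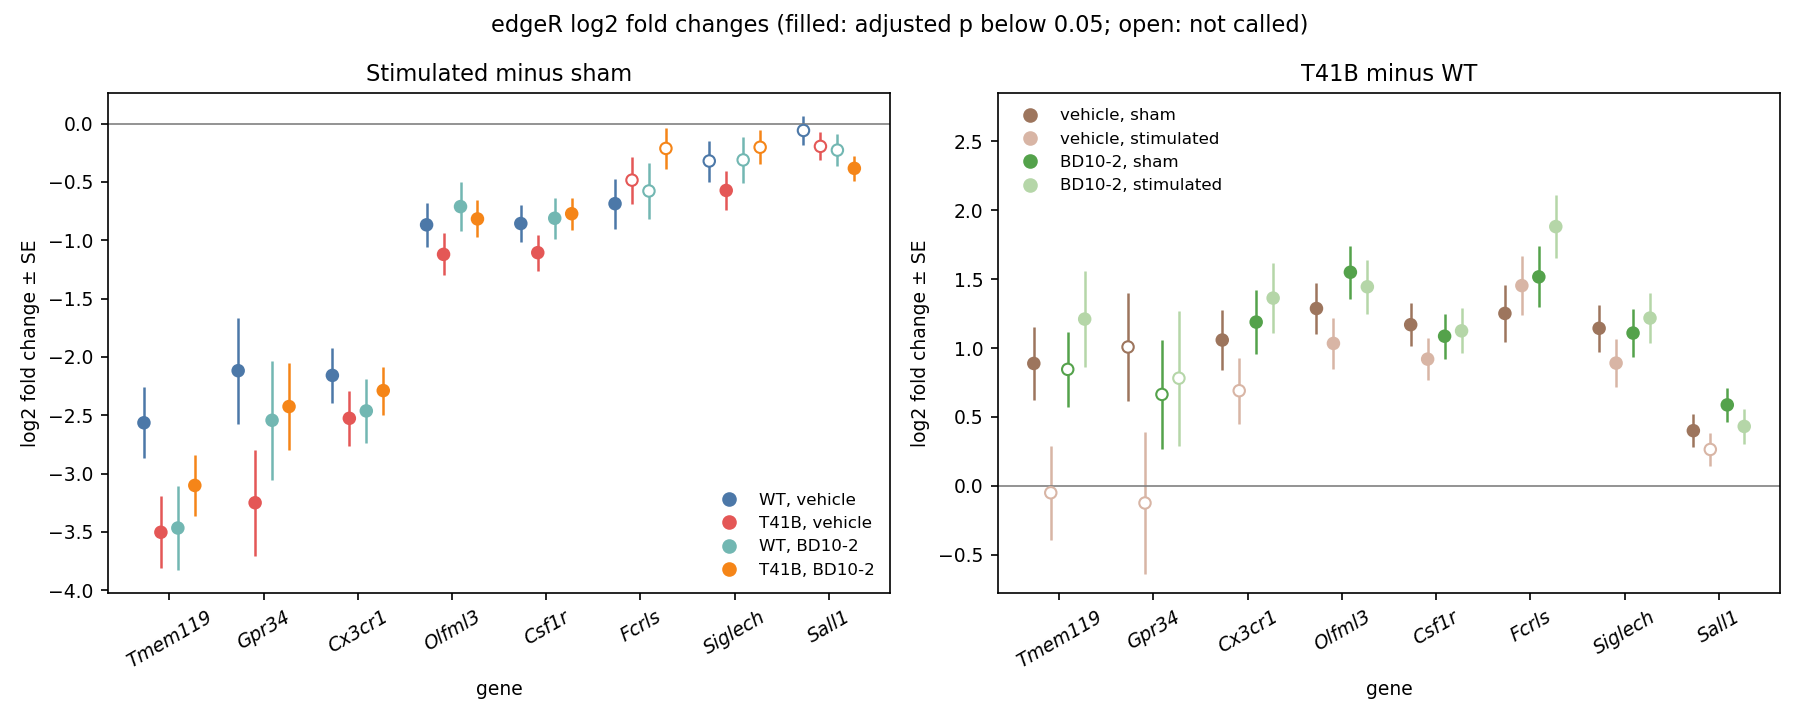
Log2 fold changes with standard errors from edgeR for each of the 8 genes, stimulated minus sham slices (left, 4 combinations of genotype and treatment) and T41B minus WT (right, 4 combinations of treatment and stimulation). Filled points were called at an adjusted p below 0.05: Tmem119, Gpr34, Cx3cr1, Olfml3 and Csf1r are filled in every comparison on the left, and Gpr34 in none on the right.

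Between 4 and 7 of the 8 genes were called higher in T41B than in WT mice, and Gpr34, which fell in every stimulation comparison, was called in none. Among vehicle-treated mice, 7 of 8 genes were called higher in sham slices, where 5.0% of all tested genes were called higher, and 6 of 8 in sham slices of BD10-2-treated mice, against 4.31%. In stimulated slices 4 of 8 were called higher with vehicle, against 4.74% of all genes, and 7 of 8 with BD10-2, against 8.19%. None of the 8 was called lower. The median log2 fold change over the 8 genes was 1.10 and 1.10 in sham and 0.79 and 1.21 in stimulated slices, with vehicle and BD10-2, while the medians of all genes lay between -0.03 and 0.01.

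Olfml3, Fcrls, Csf1r and Siglech were higher in T41B mice in all 4 comparisons, and none of their groups overlapped. The share of all genes whose groups do not overlap was not computed, for these or the stimulation comparisons, so overlap is given as a description. From the values above, Olfml3 was at a mean of 39.5 ± 9.81 CPM (SD, n = 4) in vehicle-treated T41B mice and 16.2 ± 1.85 CPM (SD, n = 4) in WT mice in sham slices (log2 difference 1.29 ± 0.18 SE, with an edgeR adjusted p of 1.99e-05). Csf1r was at 188 ± 43.2 against 83.6 ± 11.99 CPM (SD, n = 4 each; 1.17 ± 0.15, edgeR adjusted p = 7.15e-06). Fcrls was at 27.8, 33.1, 40.2 and 42.7 CPM in sham slices of vehicle-treated T41B mice, all above the highest WT slice at 16.0 CPM (1.25 ± 0.21, edgeR adjusted p = 0.000191). Its difference in stimulated slices was 1.45 ± 0.21 with vehicle and 1.88 ± 0.23 with BD10-2, where T41B slices held 21.4, 28.6, 31.6, 42.2 and 52.0 CPM and WT slices 8.98, 9.55 and 10.1 CPM. Without the choroid-rich samples the calls in stimulated slices with vehicle were lost for Fcrls (1.17, adjusted p = 0.0553), Csf1r (0.66, 0.0719), Siglech (0.67, 0.133) and Olfml3 (0.69, 0.188). Siglech was at 14.3 to 27.8 CPM in T41B against 8.30 to 10.5 CPM in WT sham slices with vehicle (1.14 ± 0.17, edgeR adjusted p = 4.48e-05), and its 4 differences ran from 0.89 to 1.22.

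Cx3cr1 was called higher in T41B mice in 3 comparisons, at 1.06 ± 0.22 (SE), 1.19 ± 0.23 and 1.36 ± 0.25. The first of these, in sham slices with vehicle, was not called without the choroid-rich samples (0.85, adjusted p = 0.151). In stimulated slices of vehicle-treated mice its difference was 0.69 ± 0.24 (edgeR adjusted p = 0.0948), although the lowest T41B slice, at 11.996 CPM, was above the highest WT slice, at 9.48 CPM. It was called by DESeq2 (0.72, adjusted p = 0.0345) and with the compared groups alone (0.70, adjusted p = 0.042). Sall1 showed the smallest differences among the called genes, at 0.40 ± 0.12 with vehicle and 0.59 ± 0.13 with BD10-2 in sham slices and 0.43 ± 0.13 in stimulated slices with BD10-2. In sham slices with vehicle its T41B values were 25.1, 28.4, 28.97 and 30.4 CPM and its WT values 18.9, 20.4, 21.1 and 25.1 CPM, which met at the edge without overlap.

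Tmem119 and Gpr34, among the genes most reduced by stimulation, were called in the fewest genotype comparisons. Tmem119 was called higher in T41B mice in sham slices with vehicle (0.89 ± 0.26 SE, edgeR adjusted p = 0.0385) and in stimulated slices with BD10-2 (1.21 ± 0.35, edgeR adjusted p = 0.0215). In sham slices with BD10-2 the difference was 0.85 ± 0.27 (edgeR adjusted p = 0.0639), with T41B and WT values that did not overlap. That difference was called by DESeq2 (0.85, adjusted p = 0.0404), with the compared groups alone (0.84, adjusted p = 0.000938) and with a batch covariate (1.05, adjusted p = 0.0177). In stimulated slices of vehicle-treated mice it was -0.05 ± 0.34, with means of 2.22 ± 0.547 CPM in T41B and 2.30 ± 1.18 CPM in WT mice (SD, n = 4 each). Gpr34 was not called in any comparison, at 1.01 ± 0.39 and 0.66 ± 0.40 in sham and -0.12 ± 0.51 and 0.78 ± 0.49 in stimulated slices, with vehicle and BD10-2. The standard errors of Gpr34 were the largest of the 8 genes, so these values do not show that the genotypes are alike for it.

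Several of the genotype calls changed with single mice, with the choroid-rich samples or with the fit. A batch covariate ended the calls of Tmem119 (0.60, adjusted p = 0.487) and Sall1 (0.27, adjusted p = 0.519) in sham slices with vehicle and that of Sall1 in stimulated slices with BD10-2 (0.38, adjusted p = 0.0793). With the compared groups alone, the call of Sall1 was lost in both of these comparisons (adjusted p 0.0863 and 0.10), as was that of Tmem119 in stimulated slices with BD10-2 (0.116). Sall1 in sham slices with vehicle was also not called with no filter (0.41, adjusted p = 0.0585) or with the first of equal libraries (0.40, 0.0609), nor was Tmem119 in stimulated slices with BD10-2 with the first of equal libraries (1.06, 0.0605). In sham slices with vehicle, the calls of Tmem119 and of Sall1 were lost without any one of Mouse1509, Mouse1513, Mouse1522, Mouse1551, Mouse1553 or Mouse1579 (log2 differences of 0.76 to 0.89 and 0.35 to 0.40), while Gpr34 was called without Mouse1513 (1.41). In stimulated slices with BD10-2, Tmem119 lost its call without Mouse1571, Mouse1586 or Mouse1592 (0.85 to 1.09) and Sall1 without Mouse1563, Mouse1564 or Mouse1565 (0.32 to 0.38), and in sham slices with BD10-2 Sall1 lost it without Mouse1590 (0.51). Without the 6 samples rich in choroid plexus markers, 4 of 8 genes were called higher in sham slices and 0 of 8 in stimulated slices of vehicle-treated mice, where 2 T41B mice were left and 1.27% and 1.13% of all genes were called higher. The differences of Siglech, Fcrls, Olfml3 and Csf1r stayed between 0.85 and 1.18 in sham and 0.66 and 1.17 in stimulated slices. Batches that held both genotypes within a stimulation gave 4 differences in sham slices and 3 in stimulated slices, vehicle and BD10-2 batches together. Those of batches A, C and D set 1 T41B mouse against 1 WT mouse. Those of batch I set 1 against 2 in sham and 2 against 2 in stimulated slices. The share of all genes positive in every batch was not computed. All 4 were positive for each gene but Gpr34, for which 3 of 4 were, and all 3 were positive for Csf1r, Cx3cr1, Fcrls, Olfml3 and Siglech, against 2 of 3 for Sall1 and 1 of 3 for Tmem119 and Gpr34. For Csf1r the within-batch log2 differences were 0.81 to 1.52 in sham and 0.64 to 0.81 in stimulated slices.

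General myeloid genes were higher in T41B mice too, with larger medians than the 8 genes, a difference that was not tested. Of 15 pan-myeloid genes, 14 and 14 were called higher in sham and 13 and 14 in stimulated slices, with vehicle and BD10-2, and their medians were 1.87, 1.69, 1.44 and 1.73 in that order. All 10 plaque-microglia genes were higher in 3 of the comparisons and 9 in stimulated slices with vehicle, and Cst7, a cystatin, rose from a mean of 0.338 to 30.4 CPM in sham slices with vehicle (a log2 fold change of 6.45 ± 0.47 SE). When libraries were scaled to the pan-myeloid list, Fcrls stayed slightly above 0 in stimulated slices (0.047 with vehicle and 0.074 with BD10-2), none of the 8 genes was called higher in T41B mice and 7, 7, 5 and 5 were called lower, in sham and stimulated slices with vehicle and then with BD10-2. Of all genes 93.4%, 91.3%, 92.2% and 93.6% were called lower there, so these counts are below the background. That scaling moved the median of all genes to -1.61, -1.41, -1.56 and -1.76, and relative to these medians the 8 genes lay at a median of 1.03, 0.82, 1.08 and 1.22. This scaling moves every gene down together, so it restates the larger difference of the list and gives no separate test of the 8 genes.

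**Figure D4:**
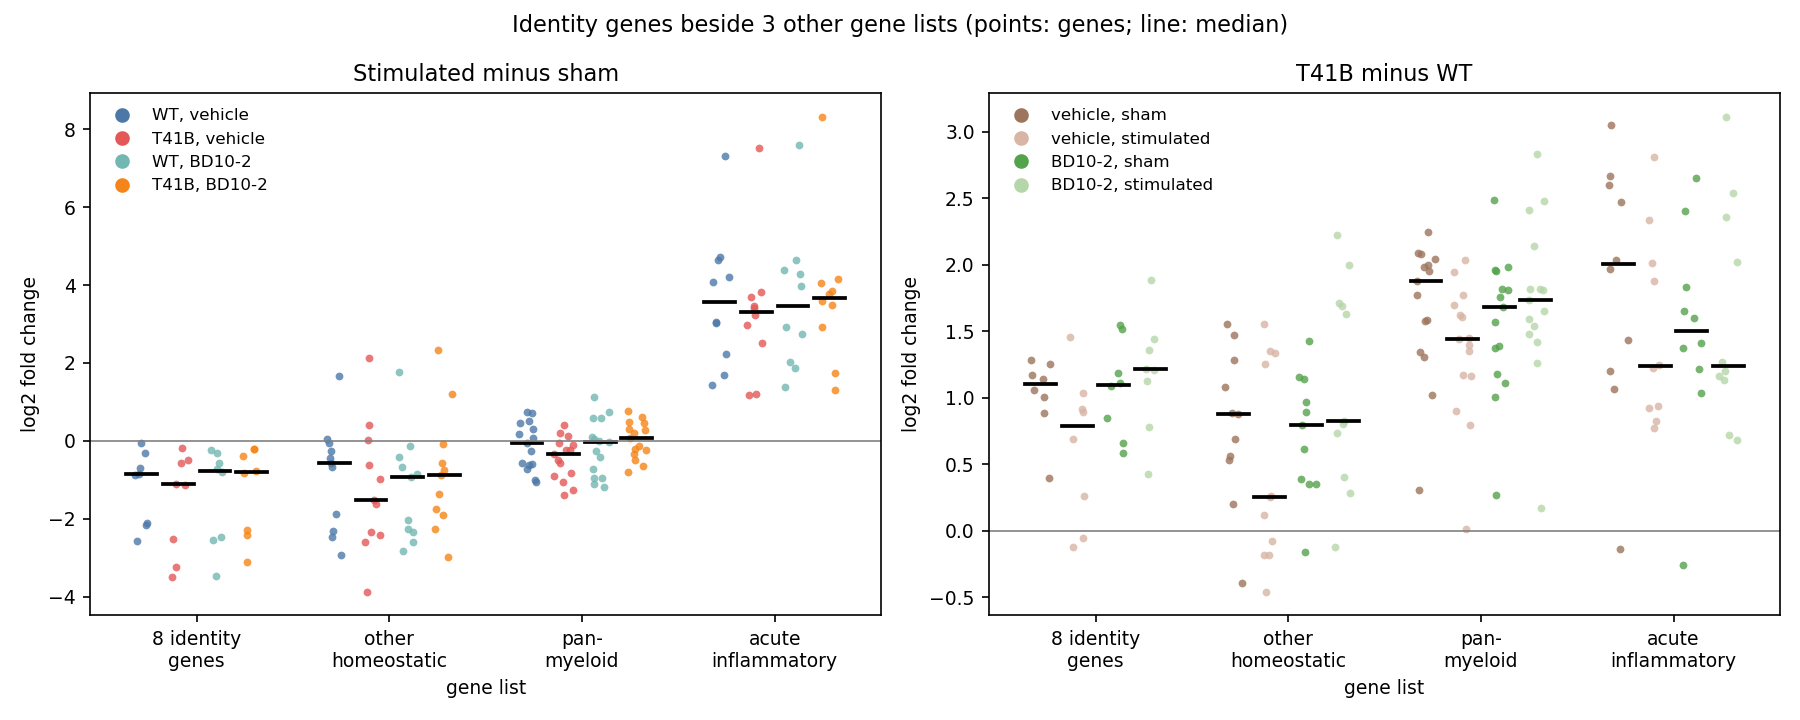
Log2 fold changes of the 8 identity genes, 11 other homeostatic, 15 pan-myeloid and 10 acute inflammatory genes (points) with the median of each list (lines), stimulated minus sham on the left and T41B minus WT on the right. After stimulation the medians of the 8 genes lie between -1.11 and -0.76 and those of the pan-myeloid list between -0.32 and 0.07, and by genotype the pan-myeloid medians lie above those of the 8 genes in each comparison.

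Genotype differences in the partners of the 8 genes were mixed. Of the 11 other homeostatic genes, 5 and 4 were called higher in sham and 4 and 7 in stimulated slices of T41B mice, with vehicle and BD10-2, and none lower. Selplg and P2ry6 were higher in all 4 comparisons, while P2ry12 was called in stimulated slices with BD10-2 alone (0.82 ± 0.26 SE). Of the 6 ligands and partners, Csf1, Tgfb1 and Tyrobp were higher in all 4: Tyrobp, the signalling adaptor of Siglech and other receptors, was at a mean of 39.7 CPM in T41B and 8.19 CPM in WT sham slices with vehicle (2.27 ± 0.26 SE, edgeR adjusted p = 6.06e-07). Csf1 was at 63.4 against 36.4 CPM (0.80 ± 0.14). The other 3, Il34, Cx3cl1 and Pla1a, were not called in any comparison, and in sham slices with vehicle they were at -0.45 ± 0.20, -0.16 ± 0.09 and -0.72 ± 0.41. Of 12 regulators, 7 and 7 were higher in sham and 5 and 6 in stimulated slices, among them Spi1, Irf8, Runx1, Tgfbr2 and Ikzf1 in all 4, and none was lower. Irf8, an interferon regulatory factor, had the largest of these differences, at 1.82 ± 0.32 in sham and 2.08 ± 0.31 in stimulated slices with vehicle. Astrocyte markers were higher in 3 and 3 of 7 genes in sham and 2 and 6 in stimulated slices, and their part was not tested.

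Csf1r shows how the 2 differences combine over the 8 groups. Its mean level was 192 ± 25.5 CPM (SD, n = 5) and 188 ± 43.2 CPM (SD, n = 4) in sham slices of T41B mice with BD10-2 and vehicle, which overlapped. Stimulated slices of T41B mice with BD10-2 followed at 112 ± 16.99 CPM (SD, n = 5), below all sham T41B slices and overlapping the next groups. Sham slices of WT mice with BD10-2, at 90.3 ± 8.60 CPM, stimulated slices of T41B mice with vehicle, at 87.4 ± 8.96 CPM, and sham slices of WT mice with vehicle, at 83.6 ± 11.99 CPM, all overlapped. Stimulated slices of WT mice were lowest, at 51.5 ± 4.44 CPM (SD, n = 3) with BD10-2 and 46.2 ± 10.5 CPM (SD, n = 4) with vehicle, and overlapped each other but no sham group. In proportion, Sall1 spanned the narrowest range of group means, from 18.1 ± 2.81 CPM (SD, n = 3) in stimulated slices of WT mice with BD10-2 to 31.8 ± 3.98 CPM (SD, n = 5) in sham slices of T41B mice with BD10-2, and Tmem119 the widest, from 1.46 ± 0.594 CPM to 29.3 ± 4.44 CPM in the same 2 groups.

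BD10-2 was not associated with a called difference in any of the 8 genes. By edgeR's quasi-likelihood test, 0 of 8 were called in each of the 4 comparisons with vehicle, and 0.0% of all tested genes were called. At an unadjusted p below 0.05 there were 374 genes in WT sham, 1093 in WT stimulated, 431 in T41B sham and 759 in T41B stimulated slices. DESeq2 called 0, 25, 0 and 0 genes in the same order and none of the 8. In stimulated slices of T41B mice 5 of the 8 had an unadjusted p below 0.05, and 7 of 8 log2 fold changes were positive with a median of 0.46: Siglech at 0.45 ± 0.16 (SE), Olfml3 at 0.47 ± 0.17, Csf1r at 0.36 ± 0.15, Fcrls at 0.45 ± 0.19 and Cx3cr1 at 0.46 ± 0.22. Their edgeR adjusted p was 0.9997, and the groups overlapped for each of the 8 genes, as for Siglech at 12.6 to 15.7 CPM with vehicle and 15.5 to 23.8 CPM with BD10-2. Other microglial and myeloid lists lay alike in that comparison, with medians of 0.52 for the other homeostatic, 0.42 for the pan-myeloid and 0.46 for the plaque-microglia genes, and 2 of its 4 vehicle slices (Mouse1551 and Mouse1553) are rich in choroid plexus markers. In the other 3 treatment comparisons the 8 genes ranged from -0.10 to 0.38 in WT sham, from -0.64 (Tmem119) to 0.16 in WT stimulated and from 0.03 to 0.22 in T41B sham slices, with medians of 0.10, -0.01 and 0.17. Without the choroid-rich samples none of the 8 was called, and the ranges were -1.15 to 0.42 in WT stimulated, 0.16 to 0.44 in T41B sham and -0.0013 to 0.76 in T41B stimulated slices, with medians of -0.09, 0.32 and 0.43. Each batch label held mice of 1 treatment, so batch and treatment cannot be told apart.

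No interaction was called for any of the 8 genes, that is, no difference of the stimulation effect between genotypes or between treatments. The share of all tested genes called in these 4 tests was 0.0% by edgeR, with 1683, 846, 337 and 526 genes at an unadjusted p below 0.05 for genotype with vehicle, genotype with BD10-2, treatment in WT and treatment in T41B mice, and DESeq2 called 4, 20, 0 and 1 genes, none of them among the 8. Tmem119 came closest: with vehicle it fell by 0.94 ± 0.43 (SE) more on the log2 scale in T41B than in WT mice (unadjusted p = 0.0371, edgeR adjusted p = 0.548). With BD10-2 the direction was opposite, and it fell by 0.36 ± 0.43 less in T41B than in WT mice. Gpr34 differed by -1.13 ± 0.65 with vehicle and 0.12 ± 0.61 with BD10-2. With vehicle the values of the 8 genes ran up to 0.20 (Fcrls) with a median of -0.25, and other lists had medians of -0.33 (pan-myeloid), -0.51 (plaque-microglia), -0.29 (regulators) and -0.28 (other homeostatic). The difference of the stimulation effect between treatments ran from -0.90 ± 0.47 (SE, Tmem119) to 0.16 in WT mice and from -0.19 to 0.82 ± 0.58 (Gpr34) in T41B mice. Without the choroid-rich samples none of the 8 was called, with medians of -0.29 for genotype with vehicle, -0.20 for treatment in WT and 0.15 for treatment in T41B mice. Tmem119 was then at -1.003 ± 0.50 for genotype with vehicle (adjusted p = 0.923) and -1.43 ± 0.46 for treatment in WT mice (adjusted p = 0.851). With the mouse as a block in the fit none of the 8 was called either, against 3, 0, 0 and 0 of all genes. Between the slices of a mouse, Gpr34 changed by -1.82 to -1.42 in vehicle-treated WT and -3.19 to -2.26 in vehicle-treated T41B mice. Csf1r changed by -1.31 to -0.84 in vehicle-treated and -0.83 to -0.59 in BD10-2-treated T41B mice. The ranges of the other genes overlapped in these contrasts, and none was tested this way.

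Among 16182 genes with a mean of at least 1 CPM, the 5 whose profile over the 8 group means was nearest to the median profile of the 8 genes were Dock2, Aif1, Itgam, Rnase4 and Tagap. Their root-mean-square distance from it was 0.08, 0.12, 0.12, 0.13 and 0.14 on the log2 scale. Among the 8 themselves, Csf1r was at 0.07 and Olfml3 at 0.12, and Tmem119 at 1.04 was farthest. These genes were picked for that likeness, so their differences are descriptions. Dock2, a guanine nucleotide exchange factor of haematopoietic cells, differed between stimulated and sham slices by -0.78 ± 0.21 (SE) and -1.15 ± 0.19 in vehicle-treated WT and T41B mice and between T41B and WT sham slices with vehicle by 1.34 ± 0.20. Aif1, which encodes the microglial stain IBA1, and Itgam also belong to the pan-myeloid list.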

How the data were processed

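The authors deposited 1 table of expected counts per Ensembl gene for 36 libraries, made with RSEM per the file's name and the submitters' processing notes, which also list cutadapt 1.8.1, STAR 2.7.6a, RSEM 1.3.1, featureCounts 1.6, SAMtools 1.11 and the builds GRCm38.p6 and mm10 without roles. The kit was stranded and removed ribosomal RNA (200 ng input), per the labels' protocols. Which annotation release was counted, and with which strand option, is not given in the sources used here.

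Expected counts were rounded, and libraries with the same mouse and stimulation were added, which gave 32 samples of 18 mice. Genes were filtered with filterByExpr (minimum count 10; 19478 of 55421 kept), scaled by TMM (factors 0.91 to 1.063) and fitted with edgeR 4.0.16 in R 4.3.3 by the quasi-likelihood test, with 1 coefficient per group and Benjamini-Hochberg adjustment over all genes tested. A gene was called at an adjusted p below 0.05, and its standard error was taken as the size of the log2 fold change divided by the square root of F. There were 16 comparisons: 4 of stimulation, 4 of genotype, 4 of treatment and 4 interactions. The code was tested on simulated counts. Differences within mice used log2(CPM + 0.5) and are descriptions. P-values measure the spread between mice, and genes near 1 CPM are the least precise.

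The mouse numbers in the labels pair the slices of 14 mice. Deviations of the same mouse from the group means correlated at a mean of 0.261 (0.045 to 0.503), against -0.07 over 52 pairs of different mice. The edgeR fit does not use the pairing. Every batch label held mice of 1 treatment.

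The rule for named genes takes all 8 in each comparison, and treatment and interaction results are given by their ranges and the genes at their ends. Genes of the other homeostatic, ligand and regulator lists may be named after the counts of the list, and from each other list up to 3 called genes with the largest fold change; 1 gene of the lists is not reported here by name. The members and lists were chosen with earlier results of these data known. Alternatives were DESeq2 1.42.0, RLE factors, no filter, a mean of at least 1 CPM, the compared groups alone, a batch covariate, the first of equal libraries, scaling to 15 pan-myeloid genes, the mouse as a block and leaving out each mouse. Leaving out the choroid-rich samples, or the library with the lowest Thy1 of the T41B mice, was added after seeing the data. Coordinates and exon lengths are from GENCODE M21, gene symbols matched 55154 of 55421 identifiers, and 5 of 8 members matched a RefSeq promoter. Figures were drawn with matplotlib 3.10.9 in Python 3.11.15.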

Additional observations from a re-analysis of the deposited data

Results flagged for a closer look

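In 5 of 48 groups of 4 or 5 mice tested, the highest or lowest mouse lay farther from the nearest other mouse than the limit of Dixon's test, and chance gives about 5 in 100. Tmem119 was at 37.1 CPM in the sham slice of Mouse1592 (T41B, BD10-2), and the next highest mouse was at 28.02 CPM. Cx3cr1 was at 33.7 CPM in the stimulated slice of the same mouse, with the next highest at 18.1 CPM. Cx3cr1 was also high in the stimulated slice of Mouse1579 (T41B, vehicle), at 18.5 CPM against 13.0 CPM in the next. Gpr34 was at 7.42 CPM in the sham slice of Mouse1513 (WT, vehicle), where the next was at 3.38 CPM. Fcrls was at 7.11 CPM, the lowest, in the stimulated slice of Mouse1513, and the next lowest was at 10.0 CPM; this slice is 1 of the 6 rich in choroid plexus markers.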

How the results depend on the processing

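Scaling to the pan-myeloid list moved the most values. It left 0 of 8 genes higher in T41B mice in each of the 4 comparisons. Of the 32 log2 differences, 28 turned negative, Fcrls stayed positive in stimulated slices (0.047 with vehicle, 0.074 with BD10-2), and Tmem119 and Gpr34 in stimulated slices with vehicle, negative before, went to -1.36 and -1.54. The values that turned follow. In vehicle-treated sham slices they were -0.75 for Tmem119, -1.21 for Sall1, -0.53 for Siglech, -0.40 for Fcrls, -0.67 for Gpr34, -0.61 for Cx3cr1, -0.38 for Olfml3 and -0.48 for Csf1r. In vehicle-treated stimulated slices they were -1.10 for Sall1, -0.48 for Siglech, -0.69 for Cx3cr1, -0.37 for Olfml3 and -0.45 for Csf1r. With BD10-2, sham slices gave -0.74 for Tmem119, -0.99 for Sall1, -0.46 for Siglech, -0.068 for Fcrls, -0.91 for Gpr34, -0.40 for Cx3cr1, -0.037 for Olfml3 and -0.49 for Csf1r, and stimulated slices -0.51 for Tmem119, -1.33 for Sall1, -0.56 for Siglech, -0.98 for Gpr34, -0.35 for Cx3cr1, -0.34 for Olfml3 and -0.62 for Csf1r. After stimulation Sall1 became 0.15 in WT and 0.26 in T41B mice with vehicle. The median shift of all genes by construction is given in the report.

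Leaving out 1 mouse gave 5 to 5, 5 to 6, 4 to 4 and 5 to 6 genes lower after stimulation (vehicle WT, vehicle T41B, BD10-2 WT, BD10-2 T41B) and 5 to 7, 4 to 4, 5 to 6 and 6 to 7 higher in T41B mice (vehicle sham, vehicle stimulated, BD10-2 sham, BD10-2 stimulated). In vehicle-treated stimulated slices the genotype difference ranged from -0.25 to 0.23 for Tmem119 and from -0.45 to 0.31 for Gpr34, and Gpr34 was 0.28 with a batch covariate. Without the choroid-rich samples, 4 and 0 genes were higher in T41B mice with vehicle (sham, stimulated), Gpr34 was 0.46 in stimulated slices, and Sall1 was 0.082 after stimulation in WT mice; the cause was not tested, and fewer samples were fitted. With the mouse as replicate block, 6, 7, 6 and 6 genes were lower after stimulation, against 8.49%, 14.8%, 1.91% and 10.4% of all genes; it changed no other call of the 8 genes in these comparisons than the Fcrls calls given in the report.

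Over all genes, calls in the genotype comparison of vehicle-treated sham slices went from 1215 to 352 with a batch covariate, 537 with the compared groups alone and 252 without the choroid-rich samples, and in stimulated slices from 1128 to 230 without them. With the compared groups alone, calls went from 1062 to 1731 and from 2056 to 1240 for genotype with BD10-2, and from 2397 to 1581 and from 4197 to 2582 for stimulation with vehicle (WT, T41B). The last was 1183 without the choroid-rich samples. Leaving out 1 mouse, genes called higher in T41B mice numbered 514 to 1424, 598 to 954, 429 to 795 and 991 to 1855, and genes called lower after stimulation 1010 to 1604 in vehicle-treated and 1110 to 1834 in BD10-2-treated T41B mice. The block moved 2397 to 3906 in WT mice with vehicle. Under DESeq2, RLE factors, a mean of at least 1 CPM and the first of equal libraries, all 32 stimulation results of the 8 genes kept direction and call. For genotype, 32 of 32 did so under RLE factors and under a mean of at least 1 CPM, 31 under no filter, 30 under DESeq2 and 30 with the first of equal libraries, and 8 genotype and 8 stimulation results recomputed without the T41B library lowest in Thy1 kept both. A batch covariate could not be fitted for treatment. Genes at 7 to 20 counts in a stimulated slice, such as Gpr34, are limited by depth.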
